A study of Homo sapiens with 6 samples.

Results

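The genes described here are the numbered ZNF zinc-finger genes that A375 cells transcribe well. A375 is an established human melanoma cell line. Members carry a symbol made of ZNF, a number and at most 1 letter, and were chosen by their mean over all 6 libraries, which had to reach 5 FPKM. FPKM counts sequenced fragments per kilobase of a gene's transcript, relative to all fragments mapped in that library. The gene table holds 29790 genes, 521 of them numbered ZNF genes, and 246 of those reached the mean. One group of 3 libraries came from cells given 3 µM fluvastatin for 24 h, and the other group of 3 from untreated cells grown beside them. Fluvastatin is a statin, an inhibitor of the mevalonate pathway, the route to cholesterol and to the lipid tails by which small GTPases hold on to membranes. Libraries are numbered 0, 1 and 2 in each group, and the labels name no vehicle for the untreated cells and do not say that the triplicates were separate cultures. All p-values therefore rest on the spread among these libraries alone, and that spread may be technical.

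ZNF is a naming scheme for human zinc-finger genes rather than 1 family. Most of the proteins hold an array of C2H2 fingers, in which each finger folds around a zinc ion and reads a few bases of DNA. The largest subgroup also carries a KRAB domain, which recruits the corepressor TRIM28 (KAP1). TRIM28 in turn brings the histone methyltransferase SETDB1, the HP1 proteins and DNA methyltransferases, and many KRAB zinc fingers silence transposable elements. These genes multiplied by tandem duplication, and a large share of them stand in clusters on chromosome 19. Other ZNF genes act outside silencing, in mitosis, ribosome assembly, RNA processing or the activation of promoters.

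The promoters of 7 members are shown because the regional pattern described below lies in a cluster of related genes with related start regions. They are RefSeq sequences on GRCh38.p14, from 120 bases before to 50 bases after an annotated start, 5′ to 3′ on the gene's strand. For ZNF43 and ZNF254 the window lies inside the annotated limits of the gene, which thus has a further start upstream. Which start A375 cells use was not determined. Capitals mark CCAAT (the NF-Y box) and CCGGAAG (an ETS word) on either strand, and, for ZNF367 alone, also the E2F words TTTCCCGC, TTTGGCGC, TTTCGCGC and TTTGCCGC. The window of ZNF486 also holds 1 E2F word, left in lower case. ZNF43, ZNF726 and ZNF486 fell after fluvastatin, and ZNF91 and ZNF254 are neighbours that did not pass the test. ZNF267, on chromosome 16, rose, and ZNF367, on chromosome 9, fell.
ZNF43, chr19:21836133-21836302, minus strand: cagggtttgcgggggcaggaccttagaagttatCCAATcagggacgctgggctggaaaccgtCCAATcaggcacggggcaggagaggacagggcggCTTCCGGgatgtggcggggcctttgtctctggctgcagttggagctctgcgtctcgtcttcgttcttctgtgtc
ZNF726, chr19:23914766-23914935, plus strand: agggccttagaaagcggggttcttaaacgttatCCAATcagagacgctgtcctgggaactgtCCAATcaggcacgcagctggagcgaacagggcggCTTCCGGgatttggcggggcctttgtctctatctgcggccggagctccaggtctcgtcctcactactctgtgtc
ZNF486, chr19:20167094-20167263, plus strand: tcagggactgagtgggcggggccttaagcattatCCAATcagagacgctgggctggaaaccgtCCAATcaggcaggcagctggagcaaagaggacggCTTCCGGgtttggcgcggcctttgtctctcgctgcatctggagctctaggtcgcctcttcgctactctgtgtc
ZNF91, chr19:23395422-23395591, minus strand: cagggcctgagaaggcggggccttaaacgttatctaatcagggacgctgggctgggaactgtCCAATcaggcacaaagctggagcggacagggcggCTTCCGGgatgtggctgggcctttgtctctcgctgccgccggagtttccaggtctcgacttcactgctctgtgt
ZNF254, chr19:24087067-24087236, plus strand: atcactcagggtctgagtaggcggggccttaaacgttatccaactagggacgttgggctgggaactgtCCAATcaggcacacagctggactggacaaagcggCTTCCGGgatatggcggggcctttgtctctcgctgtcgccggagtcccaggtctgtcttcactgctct
ZNF267, chr16:31873687-31873856, plus strand: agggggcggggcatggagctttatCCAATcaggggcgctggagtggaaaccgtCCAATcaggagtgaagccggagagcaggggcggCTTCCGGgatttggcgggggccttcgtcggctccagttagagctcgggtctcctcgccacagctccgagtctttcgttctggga
ZNF367, chr9:96418321-96418490, minus strand: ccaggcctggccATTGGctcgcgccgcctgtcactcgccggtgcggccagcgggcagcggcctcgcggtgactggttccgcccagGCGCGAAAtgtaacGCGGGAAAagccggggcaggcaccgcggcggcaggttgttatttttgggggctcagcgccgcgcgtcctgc

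Of the 246 members, 209 had a RefSeq promoter of 300 bases, 250 before and 50 after the start, matched by symbol. CCAAT stood in 48.8% of these and in 35.7% of all 27305 RefSeq promoters. CCGGAAG was the more distinct word, in 46.4% of the members' promoters against 10.7% of all. GGGCGG, the GC box, was in 67.0% against 44.6%, and TATAAA, the TATA box, in 3.35% against 11.95%. An E2F word was in 7.18% against 3.33%, and TCACNCCAC, a form of the sterol response element, in 1.44% against 1.15%. The RefSeq promoters were not chosen by level, whereas the members were. These shares therefore do not separate a trait of ZNF genes from one of well expressed genes. Members with a KRAB pattern held CCAAT in 63.5% of 115 promoters, against 31.2% of 93 promoters of coding members without it. The pattern may miss some KRAB domains, so the second group may be mixed. CCAAT was found for 4 of 7 members that rose, 16 of 24 that fell and 82 of 178 that did not pass. A match is a string of letters and not a measured binding site, and words may overlap each other.

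Every member had at least 1 FPKM in at least 3 libraries and was tested with limma on log2(FPKM + 1) among 14344 genes. A gene is said to have risen or fallen where its Benjamini-Hochberg adjusted p over all tested genes was below 0.05. After fluvastatin 10 members rose and 32 fell, and 204 did not pass. Of all tested genes 27.7% passed, 14.1% higher and 13.6% lower, and among the 10176 tested genes at a mean of at least 5 FPKM 14.8% passed higher and 15.6% lower. The shares of the members were 17.1% in all, 4.07% higher and 13.0% lower. The members' falls are thus close to the background at their level, and their rises are fewer than it. Their median log2 fold change was -0.07, beside -0.01 over all tested genes and -0.02 over those at a mean of at least 5 FPKM, and 150 of the 246 lay below 0.

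Fold changes of the members were small. They ran from -1.16 to 1.62 on the log2(FPKM + 1) scale, and 2 members changed at least 2-fold on it, against 594 of all tested genes. That scale shrinks the change of genes at low FPKM. By group means of FPKM, 18 called members were at least 1.5-fold lower and 2 at least 1.5-fold higher. All 3 fluvastatin values lay above all 3 control values for 34 members and below them for 59. The same held for 21.9% and 22.9% of all tested genes. Added up, the members' FPKM came to 3232, 3205 and 3285 in fluvastatin libraries 0, 1 and 2, against 3387, 3358 and 3504 in control libraries 0, 1 and 2. Those sums are 0.469%, 0.439% and 0.462% of the fluvastatin libraries and 0.472%, 0.490% and 0.490% of the control libraries. Every fluvastatin sum was below every control sum. In bulk RNA, fewer cells that express a gene and less of its RNA per cell cannot be told apart.

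**Figure D1:**
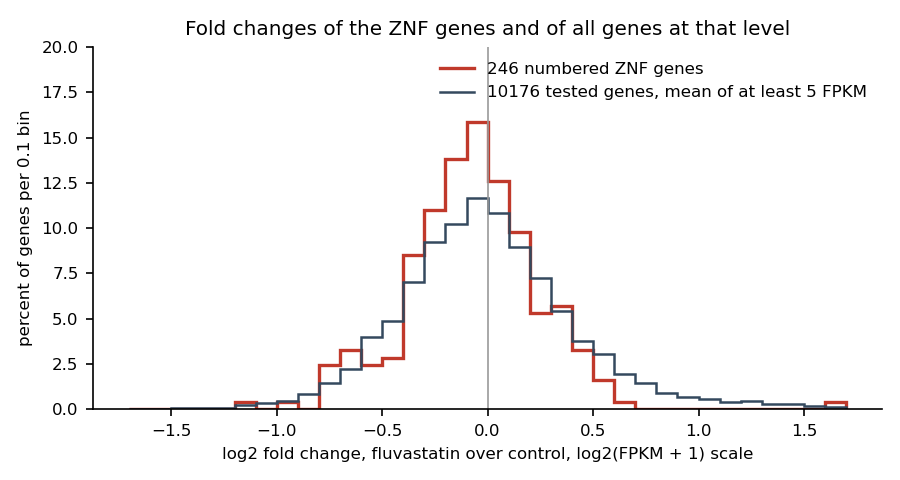
Percent of genes in each 0.1 bin of log2 fold change, fluvastatin over control, for the 246 members (red) and the 10176 tested genes at a mean of at least 5 FPKM (dark). The members' outline reaches 1.62 with 1 gene and otherwise thins out above 0.5, and 94 of the 10176 genes lie beyond the plotted range.

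The libraries themselves differed in depth. FPKM holds no counts, and the steps between low values gave relative depths of 1.27, 1.51 and 1.41 for fluvastatin libraries 0, 1 and 2 and of 1.19 and 0.966 for control libraries 1 and 2, with control library 0 as 1. Each fluvastatin library was deeper than each control library, so depth and treatment cannot be told apart. With estimated depth as a covariate 0 members passed, although 29 had an unadjusted limma p below 0.05 and all 42 called members kept their sign. The same fit left 61 calls among all tested genes. The cell label was checked on markers. SOX10, a transcription factor of the melanocyte lineage, was present at 67.1 to 75.4 FPKM in fluvastatin libraries and 20.1 to 26.1 FPKM in control libraries, and MITF, a regulator of pigment genes, at 6.10 to 7.04 FPKM after fluvastatin and 6.66 to 7.77 FPKM in controls. Pigment genes PMEL, TYRP1 and DCT were below 1 FPKM in all 6 libraries. Summed FPKM of the 8 melanocyte markers found, of 10 listed, ran from 79.0 to 91.0 after fluvastatin and from 34.2 to 41.4 in controls. That difference was mostly SOX10. MITF did not pass, nor did PAX3, with means of 6.41 FPKM after fluvastatin and 6.56 FPKM in controls. Of the other cell types' markers, KRT14 of keratinocytes rose to 4.99 ± 0.923 FPKM, against 0.691 ± 0.0936 FPKM in controls (SD, n = 3 each). COL1A1 of fibroblasts fell, CD68 of macrophages rose, and the endothelial markers VWF, PECAM1 and CDH5 were near 0, with CDH5 at 0 in all fluvastatin libraries. KRT10 of keratinocytes did not pass. KRT5 of keratinocytes and LUM, DCN and PDGFRA of fibroblasts were below 1 FPKM in all 6 libraries and were not tested. The summed levels after fluvastatin and in controls were 70.0 to 71.3 and 38.4 to 63.9 FPKM for 3 keratinocyte markers, mostly KRT10, and 5.23 to 7.55 and 9.47 to 12.9 FPKM for 4 fibroblast markers. They were 40.7 to 45.0 and 24.6 to 29.7 FPKM for CD68, the 1 immune marker found, and 0.0839 to 0.188 and 0.0403 to 0.110 FPKM for the 3 endothelial markers. The part of these in the members' values was not tested.

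Levels describe how the members were chosen and carry no test. The member means ran from 5.02 to 113.0 FPKM with a median of 9.48 FPKM, and 39 members had a mean of at least 20 FPKM, 76 one of 10 to 20 and 131 one of 5 to 10. ZNF568, ZNF773 and ZNF175 stood just inside the threshold at means of 5.02, 5.04 and 5.07 FPKM, and ZNF35, ZNF506 and ZNF398 just outside at 4.96, 4.94 and 4.93 FPKM. Through the mean over both groups, 14 members had a fluvastatin mean and 7 a control mean below 5 FPKM. Falls numbered 4 of 39 at the highest levels, 11 of 76 in the middle and 17 of 131 at the lowest, and rises 1, 5 and 4.

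The highest members have roles outside KRAB silencing. ZNF207 (BuGZ), which binds microtubules and loads the checkpoint protein BUB3 onto kinetochores, stood at 109.3, 94.7 and 101.5 FPKM in fluvastatin libraries 0, 1 and 2, against 127.4, 114.6 and 130.9 FPKM in the controls. Its groups did not overlap, but it did not pass (log2 fold change -0.29, limma adjusted p = 0.075). ZNF598, the ubiquitin ligase that marks collided ribosomes, had 77.0, 84.5 and 76.7 FPKM after fluvastatin and 74.3, 66.6 and 71.3 FPKM in controls. It was higher in each fluvastatin library and did not pass either (0.16, adjusted p = 0.22). ZNF706 averaged 76.7 ± 1.12 FPKM after fluvastatin and 70.2 ± 3.49 FPKM in controls, and ZNF638, an RNA-binding protein, 58.3 ± 0.502 FPKM after fluvastatin and 59.8 ± 6.92 FPKM in controls (SD, n = 3 each). ZNF146, which is made almost wholly of fingers, had 44.1 ± 4.39 FPKM after fluvastatin and 47.9 ± 5.68 FPKM in controls (SD, n = 3 each). Of the 6 highest members ZNF511 alone was called. It fell to 42.7, 44.3 and 42.1 FPKM after fluvastatin, against 58.5, 58.8 and 52.0 FPKM in controls (-0.38, adjusted p = 0.022). ZNF511 shares 23.5% of its 50-base words with the overlapping readthrough gene ZNF511-PRAP1, and its reads may be split with it.

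ZNF385A had the largest change of any member. It encodes HZF, an RNA-binding protein induced by p53 that also binds p53, and lies on chromosome 12 at 54369133 to 54391298 (GRCh38, minus strand). Its level was 31.2, 30.8 and 27.4 FPKM in fluvastatin libraries 0, 1 and 2, against 9.24, 10.3 and 7.69 FPKM in control libraries 0, 1 and 2. The groups lie far apart, and the lowest fluvastatin value is above the highest control. The mean of 29.8 ± 2.12 FPKM (SD, n = 3) after fluvastatin was 3.29-fold the control mean of 9.06 ± 1.297 FPKM (SD, n = 3), with a log2 fold change of 1.62 ± 0.12 (SE) and a limma adjusted p of 5.27e-04.

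The other 9 rises were smaller, from 0.32 to 0.64 on the log2 scale. ZNF621, a KRAB gene on chromosome 3 at 40524878 to 40574685, had 21.9, 20.1 and 21.9 FPKM after fluvastatin, against 12.9, 13.4 and 13.4 FPKM in controls. Its replicates were tight in both groups, and it rose 1.61-fold (0.64 ± 0.08 SE, adjusted p = 0.0029). ZNF654, also on chromosome 3, had 12.1, 11.1 and 12.5 FPKM after fluvastatin and 8.14, 7.27 and 8.42 FPKM in controls (0.53, adjusted p = 0.0093). ZNF267, whose promoter is shown above, had 11.1, 10.8 and 11.6 FPKM after fluvastatin and 7.46, 8.01 and 7.23 FPKM in controls (0.51, adjusted p = 0.0070). In each of these genes the lowest fluvastatin library exceeded the highest control. ZNF385A, ZNF621, ZNF654 and ZNF267 are the 4 rises that stayed called whichever single library was left out.

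The remaining 6 rises lost their call without at least 1 library. ZNF800 had the highest level, at 36.4 ± 1.44 FPKM after fluvastatin and 29.1 ± 1.404 FPKM in controls (SD, n = 3 each), and was lost without any single library but control library 2, with adjusted p up to 0.11. ZNF697 averaged 14.9 ± 0.634 FPKM after fluvastatin and 11.3 ± 0.469 FPKM in controls, and ZNF805 6.78 ± 0.404 FPKM after fluvastatin and 4.85 ± 0.323 FPKM in controls (SD, n = 3 each). Both were lost without fluvastatin library 0 or 2 or control library 1, with adjusted p up to 0.070 and 0.061. ZNF160, a KRAB gene with 20 fingers, had 15.7, 13.0 and 13.3 FPKM after fluvastatin and 10.2, 9.53 and 10.4 FPKM in controls, and was lost without fluvastatin library 0 or control library 0 or 1 (adjusted p up to 0.072). ZNF587 and ZNF585B have near copies, which makes their values less certain. ZNF587 shares 20.2% of its 50-base words with genes elsewhere, ZNF417 above all, and overlaps ZNF814 on the other strand. It had 19.4, 16.4 and 14.7 FPKM after fluvastatin and 11.3, 12.3 and 12.3 FPKM in controls, and was lost without any single library but fluvastatin library 2 (adjusted p up to 0.085). ZNF585B, which shares 20.2% with genes elsewhere and most with ZNF585A, averaged 7.60 ± 1.09 FPKM after fluvastatin and 5.33 ± 0.292 FPKM in controls (SD, n = 3 each), and was lost without any single library but fluvastatin library 0 (adjusted p up to 0.090).

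**Figure D2:**
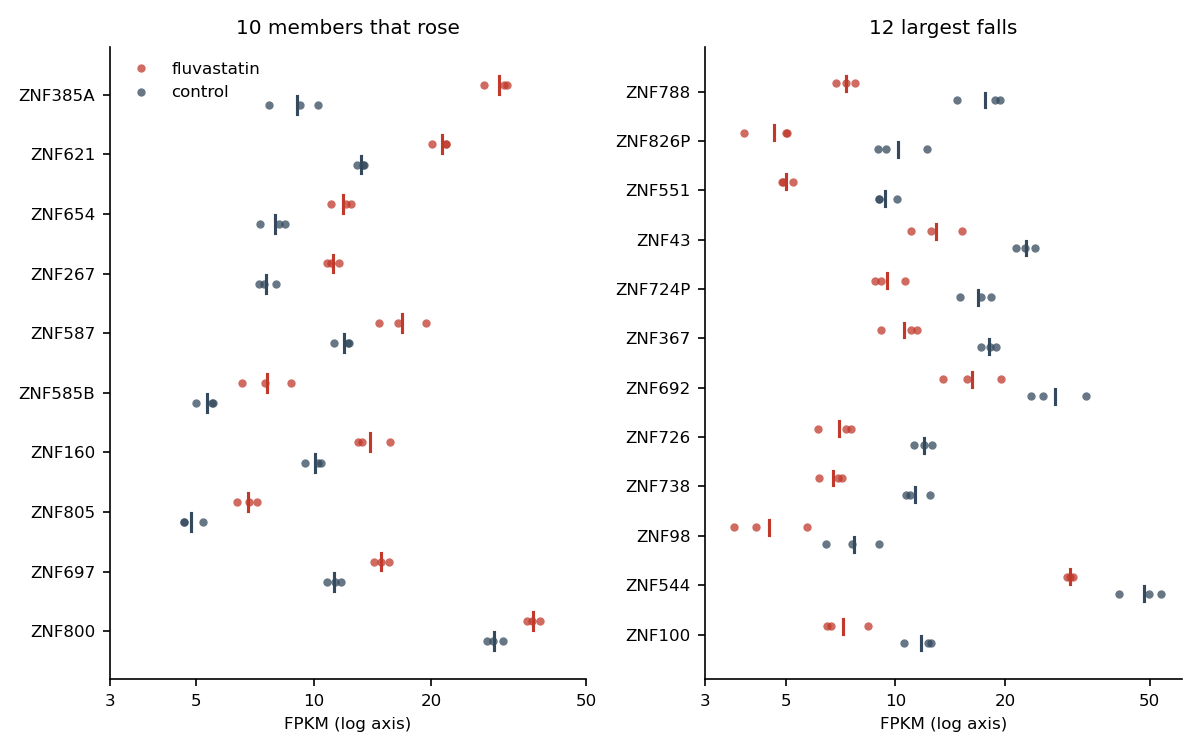
FPKM in each library (dots, log axis) and group mean (bars) for the 10 members that rose and the 12 largest falls, fluvastatin above control for each gene. In every gene drawn the fluvastatin dots lie wholly to one side of the control dots, and ZNF385A, at means of 29.8 FPKM after fluvastatin and 9.06 FPKM in controls, has the widest gap.

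Among the falls the largest belonged to ZNF788, annotated as a pseudogene and lying on chromosome 19 at 12092263 to 12137235. It had 7.33, 6.86 and 7.76 FPKM after fluvastatin, against 18.8, 14.8 and 19.4 FPKM in controls. Each treated value was thus below every control value, and the control mean was 2.41-fold the fluvastatin mean (log2 fold change -1.16 ± 0.12 SE, limma adjusted p = 0.0016). ZNF788 overlaps ZNF20 on the other strand, and whether counting used strand is not given in the sources used here. An antisense gene overlaps 144 of the members and 32 of the 42 called ones. ZNF826P, another pseudogene, had 5.00, 3.82 and 5.04 FPKM after fluvastatin and 9.41, 8.94 and 12.2 FPKM in controls (-0.99, adjusted p = 0.0052). In all 8 members had a pseudogene type and no coding transcript. Of these 3 fell, ZNF788, ZNF826P and ZNF702P, none of the 8 passed as higher in limma (1 at an unadjusted p below 0.05), and their median was -0.40.

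Among coding genes, ZNF551 on chromosome 19 at 57681969 to 57717301 had 5.24, 4.89 and 4.89 FPKM after fluvastatin, against 10.1, 9.03 and 9.03 FPKM in controls (-0.79 ± 0.09 SE, adjusted p = 0.0017). ZNF43 had 15.3, 12.5 and 11.1 FPKM after fluvastatin and 21.4, 22.8 and 24.2 FPKM in controls (-0.78, adjusted p = 0.0071). Both encode KRAB zinc fingers, and their groups are clear of each other by several FPKM. ZNF544, another KRAB gene and one of the better expressed members, had 29.6, 30.2 and 30.8 FPKM after fluvastatin and 49.9, 53.6 and 41.2 FPKM in controls (-0.65, adjusted p = 0.0089). The treated values lie close together, while the control values are spread more widely.

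Not all falls were of KRAB genes. ZNF367, a protein with only 2 fingers, had 9.14, 11.0 and 11.5 FPKM after fluvastatin and 18.95, 18.2 and 17.2 FPKM in controls (-0.73, adjusted p = 0.0049). Its printed promoter holds 2 E2F words, and that of ZNF486 holds 1. Among the 300-base promoters an E2F word stood in 2 of 24 members that fell (8.33%) and 13 of 178 that did not pass (7.30%). ZNF692 (AREBP), first described as a factor of the AMPK pathway, had 15.7, 19.5 and 13.5 FPKM after fluvastatin and 33.5, 25.5 and 23.6 FPKM in controls. The groups do not overlap, but the call (-0.73, adjusted p = 0.025) was lost without fluvastatin library 0 or 2 or control library 0 or 1, with adjusted p up to 0.076. ZNF462, a large chromatin protein with 33 fingers by the pattern used, had 13.8, 11.6 and 14.3 FPKM after fluvastatin and 19.4, 20.8 and 19.6 FPKM in controls (-0.56, adjusted p = 0.010), and stayed called whichever library was left out. ZNF202, a repressor of lipid genes such as ABCA1 with both SCAN and KRAB patterns, had 6.72, 6.64 and 5.89 FPKM after fluvastatin and 8.45, 9.13 and 10.9 FPKM in controls (-0.50, adjusted p = 0.021). It lost its call without any 1 fluvastatin library or control library 1 (adjusted p up to 0.070).

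The other 22 falls ran from -0.77 to -0.33, and in all 32 falls every fluvastatin library was below every control library. Together with the genes above, 14 of the 32 stayed called without any single library, namely ZNF788, ZNF826P, ZNF551, ZNF43, ZNF724P, ZNF367, ZNF726, ZNF738, ZNF544, ZNF100, ZNF584, ZNF714, ZNF462 and ZNF587B. Calls of ZNF98, ZNF680, ZNF232, ZNF486, ZNF814, ZNF695, ZNF702P, ZNF195, ZNF700, ZNF511, ZNF22, ZNF614, ZNF609, ZNF839, ZNF529 and ZNF721, like those of ZNF692 and ZNF202, depended on at least 1 library. ZNF486 was lost only without fluvastatin library 0 (adjusted p = 0.054), and ZNF814 only without fluvastatin library 1 or 2 (adjusted p up to 0.054). ZNF98 shares 58.0% of its 50-base words with genes elsewhere, most with ZNF492, so its 4.48 ± 1.10 FPKM after fluvastatin and 7.67 ± 1.28 FPKM in controls (SD, n = 3 each) may hold reads of both.

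The role lists are short, and their counts stand beside 17.1% called of all members and 27.7% of all tested genes. Of 5 members that act in ribosome assembly or translation, ZNF385A rose, and ZNF598, ZNF622, ZNF593 and ZNF330 did not pass. ZNF593 and ZNF622, which help the large ribosomal subunit leave the nucleus and mature, averaged 20.8 ± 5.12 and 24.8 ± 1.29 FPKM after fluvastatin and 25.9 ± 2.37 and 23.6 ± 2.27 FPKM in controls (SD, n = 3 each). Of 6 members of RNA processing and elongation 1 fell, ZNF692, and ZNF326, ZNF346, ZNF638, ZNF830 and ZNF106 did not pass. Of 12 tested genes in the list of other transcription factors 2 fell, ZNF462 and ZNF202, both described above. None of 5 promoter-binding activators passed in limma (ZNF384, ZNF410, ZNF143, ZNF76 and ZNF335), and 1 had an unadjusted p below 0.05. That one, ZNF143, which binds many promoters and takes part in chromatin loops, had 11.0, 11.98 and 12.6 FPKM after fluvastatin and 20.2, 20.4 and 12.3 FPKM in controls. Its groups overlap through control library 2 alone (adjusted p = 0.10, and 0.0083 without that library). ZNF410, the activator of the NuRD helicase gene CHD4, had 25.2 ± 1.72 FPKM after fluvastatin and 28.7 ± 3.56 FPKM in controls (SD, n = 3 each, adjusted p = 0.31). Corepressor-binding factors, among them ZNF217, an amplified oncogene that binds CtBP and CoREST, did not pass in any of the members listed (ZNF532, ZNF217, ZNF592, ZNF516, ZNF827, ZNF687 and ZNF652), with log2 fold changes between -0.06 and 0.38 and 0 unadjusted limma p-values below 0.05.

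Domain content was read from the annotated proteins. A KRAB pattern was found in 130 members, and 6 of these rose and 20 fell (15.4%), with a median log2 fold change of -0.09. Another 108 coding members lacked it, of which 4 rose and 9 fell (8.33%), with a median of -0.04. How many KRAB domains the pattern misses was not measured, so this second group may hold some. ZNF714, which lies in the cluster described next, is one of those without the pattern. Falls made up 13.6% of all tested genes and 15.6% of those at a mean of at least 5 FPKM. The KRAB members that fell include ZNF43, ZNF100, ZNF486, ZNF724P, ZNF726 and ZNF738, which lie in the chromosome 19 stretch described next. The KRAB pattern also matched 27 of 15660 coding genes whose symbols do not begin with ZNF, ZFP, ZKSCAN, ZSCAN, ZIM or ZIK. Zinc-finger genes under other names, such as the ZBTB genes, were not left out of these. Of 12 members with a SCAN pattern 2 fell and none passed as higher, with 2 higher at an unadjusted limma p below 0.05. By number of fingers, 1 rose and 5 fell of 41 members with 0 to 4, 3 and 9 of 69 with 5 to 9, 4 and 8 of 74 with 10 to 14, and 2 and 7 of 54 with 15 or more. Spearman's rho of the log2 fold change with fingers, protein length, transcript length, GC content and level lay between -0.03 and 0.13 across 238 to 246 members. It is a description, since the genes share their libraries.

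Chromosome 19 held 115 of the 246 members, of which 4 rose and 19 fell, and the other chromosomes held 131, of which 6 rose and 13 fell. The medians were both -0.07. Numbered ZNF genes on chromosome 19 were cut into stretches wherever neighbours lay more than 1 Mb apart, and each stretch is named by its highest member. One stretch stood out when its values were seen and was chosen for that, so its counts are a description with no test. This ZNF91 stretch, between positions 19668796 and 24129961 on GRCh38, is the primate-expanded cluster of KRAB genes on the short arm and near the centromere. It held 21 members, of which none passed as higher in limma and 9 fell, with a median of -0.35 and 16 of the 21 below 0. At an unadjusted p below 0.05 the counts were 0 higher and 11 lower. The other 225 members had 10 rises and 23 falls, with 14.7% called and a median of -0.06.

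The 9 that fell in the ZNF91 stretch were ZNF486, ZNF826P, ZNF714, ZNF738, ZNF100, ZNF43, ZNF98, ZNF724P and ZNF726. ZNF724P had 8.77, 9.10 and 10.6 FPKM after fluvastatin and 17.2, 15.1 and 18.3 FPKM in controls (-0.77, limma adjusted p = 0.0048), and shares 53.4% of its 50-base words with an overlapping gene. ZNF726 had 7.30, 6.12 and 7.57 FPKM after fluvastatin and 11.3, 11.99 and 12.6 FPKM in controls (-0.70, adjusted p = 0.0050). ZNF100 had 8.42, 6.64 and 6.50 FPKM after fluvastatin and 12.3, 10.6 and 12.5 FPKM in controls (-0.65, adjusted p = 0.011). These genes have no settled individual function, and each was lower in all 3 treated libraries. ZNF738 had 6.93, 6.17 and 7.13 FPKM after fluvastatin and 10.7, 11.0 and 12.4 FPKM in controls (-0.67, adjusted p = 0.0049). ZNF714 averaged 6.80 ± 0.286 FPKM after fluvastatin and 10.9 ± 0.930 FPKM in controls, and ZNF486 5.95 ± 0.933 FPKM after fluvastatin and 9.27 ± 0.448 FPKM in controls (SD, n = 3 each).

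The other 12 members of the stretch did not pass. ZNF91, the repressor of SVA and L1 retrotransposons, had 25.3, 23.3 and 28.2 FPKM after fluvastatin, against 23.9, 24.0 and 24.0 FPKM in controls (0.09, adjusted p = 0.53). The treated values lie on both sides of the control values. ZNF254, shown above, had 8.29, 6.77 and 7.78 FPKM after fluvastatin and 6.09, 8.73 and 8.67 FPKM in controls (-0.02, adjusted p = 0.92). ZNF90 was near the threshold, with 5.38, 4.27 and 5.44 FPKM after fluvastatin and 6.05, 10.9 and 11.6 FPKM in controls (-0.76, adjusted p = 0.051). It passed without control library 0, the lowest control (adjusted p = 0.0072). ZNF626 and ZNF708 had the highest log2 fold changes of the stretch, 0.35 and 0.23.

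**Figure D3:**
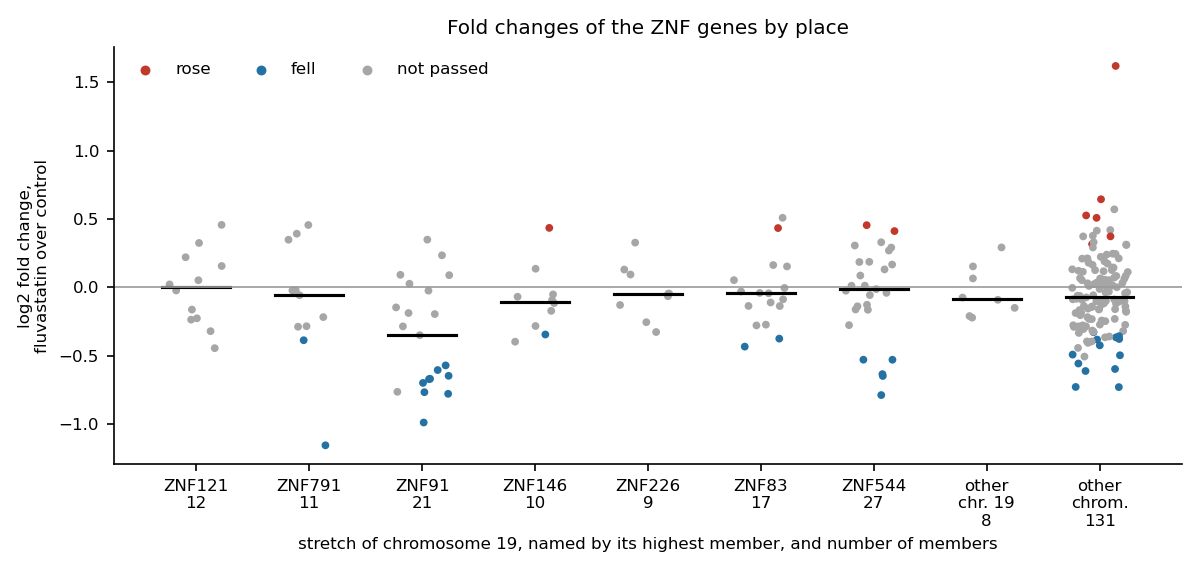
Log2 fold change, fluvastatin over control, of each member (dots) by its place, with the median of each place (bars) and the number of members under it. The 21 members of the ZNF91 stretch have a median of -0.35, and the medians of the other places lie near 0.

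Other genes lie between the same limits. Of 19 numbered ZNF genes there with a mean below 5 FPKM 13 were tested, and 5 fell, ZNF253, ZNF93, ZNF257, ZNF492 and ZNF681, with a median of -0.31. Of 20 other tested genes 6 fell, beside 13.6% of all tested genes. Of these 20 genes 19 have no coding transcript, all 6 falls among them, and with the strand setting unknown they may hold reads of any gene they overlap. None of either kind passed as higher in limma, and 0 were higher at an unadjusted p below 0.05. The 20 had a median of -0.23. Summed over its 21 members the stretch gave 179.9, 164.6 and 186.4 FPKM in fluvastatin libraries 0, 1 and 2, against 218.3, 225.2 and 254.7 FPKM in control libraries 0, 1 and 2. All 3 treated sums lie below all 3 control sums. Leaving out 1 library left 7 to 9 falls and no rise in the stretch, and with estimated depth as a covariate no member passed while the median was -0.33.

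Promoters of the stretch resemble one another, as the printed sequences show. All 17 members of it with a RefSeq promoter held CCAAT, 5 that fell and 12 that did not pass, against 44.3% of 192 other members, and 12 of the 17 held CCGGAAG. In pairwise alignments of 7 such promoters, the 5 shown above for the stretch with those of ZNF714 and ZNF100, 78.7% to 90.0% of aligned bases were identical, with a median of 83.9% over 21 pairs. ZNF267 of chromosome 16, which rose, matched these 7 at 63.7% to 72.6% of aligned bases. ZNF367 of chromosome 9 matched them at 56.8% to 67.6%, a range that overlaps that of ZNF267. The number of words differed among the printed and aligned windows. CCAAT stood at 2 places in ZNF43, ZNF726, ZNF714, ZNF486 and ZNF267, and at 1 in ZNF100, ZNF91 and ZNF254. These windows take in all 5 stretch members with a promoter that fell. Of the 12 that did not pass they take in only ZNF91 and ZNF254. The number of CCAAT places can therefore not be set against the calls. CCGGAAG was in each of the 8 genes so counted but ZNF714.

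Calls elsewhere on chromosome 19 went both ways. The ZNF544 stretch near the end of the long arm held 27 members, of which 2 rose, ZNF587 and ZNF805, and 5 fell, ZNF551, ZNF814, ZNF587B, ZNF544 and ZNF584. In the ZNF121 stretch of the short arm none of 12 members passed in limma, with a median of 0.00, although 1 was higher and 3 lower at an unadjusted p below 0.05. The ZNF226 stretch likewise had no call among 9 members, with 1 higher at that p. In the ZNF791 stretch 2 of 11 members fell, ZNF788 among them, and none passed as higher, with 2 higher at that p. The ZNF83 stretch had 1 rise and 2 falls among 17 members, and the ZNF146 stretch 1 rise and 1 fall among 10.

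KRAB zinc fingers work through a shared corepressor, whose main scaffold fell. Of 27 corepressor and heterochromatin genes listed, 25 were found and tested, and 1 rose and 8 fell, which is 36.0% against 27.7% of all tested genes, with a median log2 fold change of -0.20. At a mean of at least 5 FPKM, where most of these genes and of the NuRD genes described next stand, 30.4% of tested genes passed. TRIM28, the scaffold that binds KRAB domains, had 438.1, 470.8 and 476.3 FPKM after fluvastatin, against 819.1, 720.9 and 647.0 FPKM in controls (-0.65 ± 0.11 SE, adjusted p = 0.0077). The groups are far apart, and the control mean was 1.58-fold the fluvastatin mean. With estimated depth as a covariate TRIM28 did not pass (limma adjusted p = 0.19). UHRF1, which guides maintenance of DNA methylation, had 21.8, 23.7 and 20.8 FPKM after fluvastatin and 51.8, 45.8 and 36.4 FPKM in controls (-0.97, adjusted p = 0.0047). DNMT1, the maintenance methyltransferase, averaged 125.5 ± 13.1 FPKM after fluvastatin and 191.2 ± 21.9 FPKM in controls (SD, n = 3 each, adjusted p = 0.015, and 0.054 without fluvastatin library 0). Of the HP1 proteins, which bind methylated histone H3, CBX1 and CBX3 fell and CBX5 did not pass. CBX3 had 160.1 ± 15.5 FPKM after fluvastatin and 231.7 ± 16.5 FPKM in controls, and CBX1 32.2 ± 1.10 FPKM after fluvastatin and 45.0 ± 1.74 FPKM in controls (SD, n = 3 each). The histone methyltransferases SUV39H1, SUV39H2 and EHMT2 fell too, with fold changes of -0.59, -0.74 and -0.42, the call of SUV39H2 being lost without control library 2 (adjusted p = 0.052). SETDB1, the methyltransferase that TRIM28 recruits, had 23.7 ± 1.98 FPKM after fluvastatin and 27.5 ± 3.62 FPKM in controls (SD, n = 3 each) and did not pass (adjusted p = 0.28).

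MPHOSPH8, a chromodomain protein of the HUSH silencing complex, was the 1 gene of the list to rise, with 13.8, 11.2 and 13.6 FPKM after fluvastatin and 9.92, 9.35 and 9.10 FPKM in controls (0.40, limma adjusted p = 0.033). That call was lost without any single library but fluvastatin library 1 (adjusted p up to 0.11). Of 14 tested genes of the NuRD complex, a remodeller and histone deacetylase that TRIM28 also binds, none passed as higher and 4 fell in limma, which is 28.6% against 27.7% of all tested genes, with a median of -0.21 and 1 higher at an unadjusted p below 0.05. RBBP4, a histone-binding subunit, had 84.0, 89.0 and 90.5 FPKM after fluvastatin and 142.0, 135.6 and 130.4 FPKM in controls (-0.62, adjusted p = 0.0034). HDAC2, MTA2 and MBD3 fell by 0.38, 0.36 and 0.49 on the log2 scale, and each lost its call without at least 4 of the single libraries, with adjusted p up to 0.099. With estimated depth as a covariate no called gene of either list passed in limma, though each kept its sign. The adjusted p in that fit was 0.14 for UHRF1 and 0.15 for RBBP4.

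**Figure D4:**
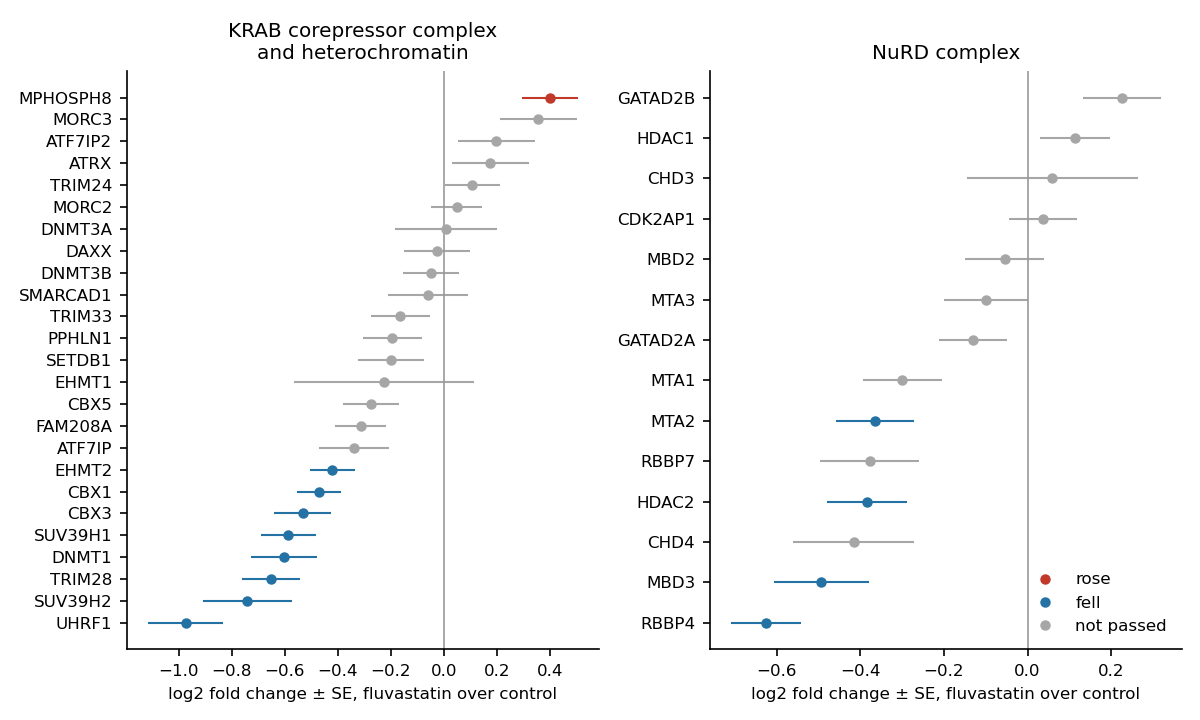
Log2 fold change ± SE, fluvastatin over control, of the tested corepressor and heterochromatin genes (left) and NuRD genes (right), coloured by the limma call. UHRF1, SUV39H2 and TRIM28 lie lowest on the left, at -0.97, -0.74 and -0.65, and MPHOSPH8 alone rose.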

How the data were processed

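Each gene has 1 deposited value in each library. STAR, Cufflinks, Cuffdiff and hg38 are named in the submitters' processing notes. The table's header names no unit, and the deposited values were taken as FPKM, since they are not whole and sum to 686133 to 729564 per library. Tool versions and strand setting are not given in the sources used here. FPKM hides counts, so depth was estimated only relatively, and counting error is larger in the shallower control libraries.

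Genes that reached 1 FPKM in 3 or more of the 6 libraries were tested, fluvastatin against control, with limma 3.58.1 (R 4.3.3) on log2(FPKM + 1), two-sided and without a replicate block. The script was tested on simulated data. Means, SDs and n-fold values are of FPKM, log2 fold changes of log2(FPKM + 1). The table has no column of other samples.

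Positions, gene types, transcripts and proteins came from GENCODE 29 (GRCh38), and zinc-finger, KRAB and SCAN patterns were searched in the proteins with Python 3.11.15. Word sharing is the percent of a gene's 50-base transcript words found in other genes. Promoters came from RefSeq, aligned with Biopython 1.88.

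The members and lists were chosen with earlier results of these data known. Named genes are the 12 largest rises and falls among called members, the 6 highest members, 3 on each side of the threshold, textbook role and corepressor lists and members whose call rests on 1 library. The ZNF91 stretch and its neighbours were named after their values were seen. Alternatives were another pseudocount, other filters, scalings, variance settings and gene types, a replicate block, depth as a covariate and leaving out each library.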

Additional observations from a re-analysis of the deposited data

How the results depend on the processing

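Against 10 members that rose and 32 that fell, leaving out each library gave 4 to 9 that rose and 16 to 25 that fell, with the median log2 fold change between -0.094 and -0.035. Over all tested genes, 2017 rose and 1954 fell, and leaving out each library gave 1274 to 1785 and 1066 to 1631. With estimated depth as a covariate, 0 members rose and 0 fell, the members' median was -0.015, and 49 genes of the table rose and 12 fell. That fit spends a degree of freedom on a covariate that separates the groups. Quantile normalization gave a median of -0.11. In 15 alternatives, no followed gene that was called in the main fit or in the alternative had opposite signs in these 2 fits. Members that did not pass could change sign, such as ZNF516, at 0.38 in the main fit and -0.50 with estimated depth as a covariate. Of the 42 called members 18 stayed called under all alternatives but depth. No scaling moved the median of all tested genes by 0.1.

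Replicate numbers are shared by the groups, and deviations of same-numbered libraries correlated at -0.0015, 0.0845 and 0.0842, all under 0.1. Differently numbered libraries of the 2 groups correlated at -0.136 to 0.058, below the values of 0.0845 and 0.0842. Correlations this weak cannot decide whether the numbers pair the libraries, and the main fit used no pairing. With the replicate block 8 members rose and 23 fell.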

Other observations

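Of 275 numbered ZNF genes below a mean of 5 FPKM 193 were tested, and 9 rose and 21 fell by limma. These are shares of 4.66% and 10.9%, against 14.1% and 13.6% of all tested genes. ZNF365, a centrosomal protein, had 5.43 ± 0.283 FPKM after fluvastatin and 2.89 ± 0.402 FPKM in controls (SD, n = 3 each, adjusted p = 0.0042). ZNF436 had 4.799 ± 0.579 FPKM after fluvastatin and 2.79 ± 0.135 FPKM in controls (SD, n = 3 each). ZNF93, a repressor of L1 retrotransposons, had 3.28 ± 0.282 FPKM after fluvastatin and 5.34 ± 0.614 FPKM in controls (SD, n = 3 each, adjusted p = 0.011).

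The ZBTB genes, zinc-finger factors with a BTB domain in place of KRAB, make up the other zinc-finger list. Of 35 tested 6 rose and 4 fell, which is 28.6% against 27.7% of all tested genes, with a median log2 fold change of 0.08. ZBTB7A, a repressor of glycolysis and fetal globin genes, had 19.5, 21.5 and 17.3 FPKM after fluvastatin and 10.2, 13.9 and 9.43 FPKM in controls (0.76, limma adjusted p = 0.015). ZBTB4, which binds methylated DNA, had 18.1, 18.0 and 17.6 FPKM after fluvastatin and 11.8, 12.3 and 11.2 FPKM in controls (0.57, adjusted p = 0.0042). ZBTB18, a neuronal repressor, had 6.96 ± 0.434 FPKM after fluvastatin and 10.8 ± 0.779 FPKM in controls (SD, n = 3 each, adjusted p = 0.0070). Of 33 tested KRAB or SCAN genes under other names ZSCAN20 rose and ZIK1 fell, with a median of 0.09. That is 6.06% called, against 27.7% of all tested genes.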
